A study of Homo sapiens with 10 samples.

Results

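The central domain of 18S rRNA, taken here as positions 680 to 1199 of the mature RNA, was examined for 2′-O-methylation in human PA1 cells, an established line derived from an ovarian teratoma. All 520 positions with these numbers were taken from every count table, out of 6939 positions of 18S and 28S (7.49%). They hold 5 of the 106 methylation sites that the study lists as already annotated (4.72%), namely G683, C797, U799, G867 and A1031, and the unannotated A904, which the study proposed as a candidate. In hg19 the region lies on the unplaced contig chrUn_gl000220 at positions 109757 to 110276, with a second identical copy at 153729 to 154248, and 56.9% of its bases are G or C.

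In 2′-O-methylation a methyl group is placed on the ribose of a nucleotide. In rRNA this is done mostly by fibrillarin within box C/D snoRNPs. A guide snoRNA pairs with the rRNA, and the rRNA nucleotide that faces the fifth base upstream of box D (or of the related box D′) is modified. The central domain of 18S forms the platform of the small ribosomal subunit.

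RibOxi-seq reports the position of each fragment's 3′-end. Periodate destroys the 2′,3′-diol of an unmethylated terminal ribose so that the linker cannot be joined to it, whereas a 2′-O-methylated end survives. Total RNA was fragmented with Benzonase in all libraries. For the oxidized libraries it was then oxidized, β-eliminated, dephosphorylated and oxidized again, and the control libraries went from fragmentation to linker ligation. A NextSeq experiment had 3 control and 3 oxidized libraries. In each group, replicates 1 and 2 were made from passage 6 cells and replicate 3 from passage 4 cells. A MiSeq pilot had 2 control and 2 oxidized libraries from passage 7. No label says which libraries came from separate cultures, so the p-values measure only the spread between these libraries.

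The 25 nucleotides centred on each annotated site and on the candidate were read from the hg19 contig, to show what the fragments ended on and what a guide would pair with. The capital marks the site, and each line runs 5′ to 3′ on the plus strand of the contig.
G683 (chrUn_gl000220:109748-109772): aagcucguaguuGgaucuugggagc
C797 (chrUn_gl000220:109862-109886): cggggcccgaagCguuuacuuugaa
U799 (chrUn_gl000220:109864-109888): gggcccgaagcgUuuacuuugaaaa
G867 (chrUn_gl000220:109932-109956): gcuaggaauaauGgaauaggaccgc
A904 (chrUn_gl000220:109969-109993): uugguuuucggaAcugaggccauga
A1031 (chrUn_gl000220:110096-110120): cauuaaucaagaAcgaaagucggag
C797 and U799 are 2 nt apart, so their windows overlap. A904 lies 37 nt after G867 and 127 nt before A1031. The 168 nt after A1031 hold no annotated site.

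The reference base was the listed one at 5 of 5 annotated sites. The study's list names guide snoRNAs for these sites, here given by their current symbols, and for 4 of the 5 sites such a gene was found in GENCODE's annotation of hg19. They are shown with box CUGA in capitals, 5′ to 3′, as the pairing partners of the windows above.
SNORD19B for G683 (chr3:52724760-52724843, plus strand): caagauccaacuCUGA
SNORD105 for U799 (chr19:10218327-10218411, plus strand): uucaaaguaaacgcuCUGA
SNORD98 for G867 (chr10:70514929-70514995, plus strand): uccuauuccauugCUGA
SNORD59A for A1031 (chr12:57038811-57038885, minus strand): gacuuucguucuuCUGA
In each of these the base that faces the site is the fifth upstream of the box, a distance that the search itself required. Runs of Watson-Crick pairs were 12 nt long for SNORD19B, 15 for SNORD105, 12 for SNORD98 and 13 for SNORD59A. SNORD19 also paired with G683 over 10 nt and SNORD105B with U799 over 12 nt. The names listed for C797 were not matched to a gene in the annotation used here. Among all 390 snoRNA genes with a SNORD symbol, the longest such run was 5 nt at C797 and 4 nt at A904. Only pairings at this distance from an exact CUGA were searched. A run of pairs is a description of the letters and not a measurement of guiding.

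The control NextSeq libraries held 72458614, 80964624 and 75495510 counts over 18S and 28S in replicates 1, 2 and 3, and the oxidized ones 13237673, 12293410 and 13694386. The control MiSeq libraries held 44061905 and 30392418 counts and the oxidized ones 1568883 and 1353768. The region took 4.00%, 4.08% and 5.13% of the counts in the control NextSeq libraries and 0.987%, 1.15% and 1.15% in the oxidized ones, which did not overlap. In the MiSeq libraries it took 2.65% and 3.04% in the controls and 3.73% and 3.796% after oxidation, the opposite order. A count was not a single read. In the oxidized NextSeq libraries 60, 78 and 67 positions of the region had exactly 2 counts and 92, 101 and 98 had 50 to 59, but only 4, 2 and 3 had 10 to 49, so low values came in steps of 2 and of 50. Differences of 1 such step are not read below, although 2 of the MiSeq calls listed, A955 and A1084, rest on 1 step of 50.

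Control NextSeq replicate 3, from passage 4, differed from the other 2 NextSeq controls, and passage and library cannot be told apart. Away from the annotated sites and A904, 55.0% of its counts in the region ended on A or U, against 25.7% and 25.5% in control replicates 1 and 2. The MiSeq controls had 50.1% and 49.99%, by this measure nearer to replicate 3, and A and U make up 43.0% of these positions. Spearman's rho of log2(CPM + 1) across the 520 positions, where CPM is the count scaled to 1e6 counts in the library, was 0.98 between control replicates 1 and 2 and 0.38 and 0.37 between these and replicate 3. With the MiSeq controls it was 0.33 and 0.35 for replicate 3 and 0.23 to 0.27 for replicates 1 and 2. At an assumed 50 counts per read, control replicates 1 and 2 differed by no more than sampling noise in the region (chi-square per degree of freedom 0.905) and by little more over all positions (1.10). Oxidized replicates 2 and 3 also differed little over all positions (1.07). The oxidized MiSeq libraries differed by no more than sampling noise (0.876 in the region and 0.962 over all positions). All were kept as separate libraries, so where alike libraries are not separate preparations the p-values are too small. With both NextSeq pairs summed, an alternative chosen after seeing the data, the 4 annotated sites called below were called and A904 was not (log2 fold change 6.92).

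In the oxidized NextSeq libraries most of the region's counts lay at the 5 annotated sites. These took 65.97%, 69.31% and 69.63% of the region's counts (68.3% ± 2.03, SD, n = 3). In the controls they took 0.138%, 0.151% and 0.195%. The groups did not overlap, and the exact two-sided permutation p was 0.1, the smallest that 3 against 3 libraries allow. A904 took a further 16.9%, 17.1% and 16.3% after oxidation. The other 514 positions together took 17.1%, 13.6% and 14.1%, and of the 520 positions 207, 197 and 198 had no count at all. In the control libraries 1, 2 and 0 positions had none.

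**Figure D1:**
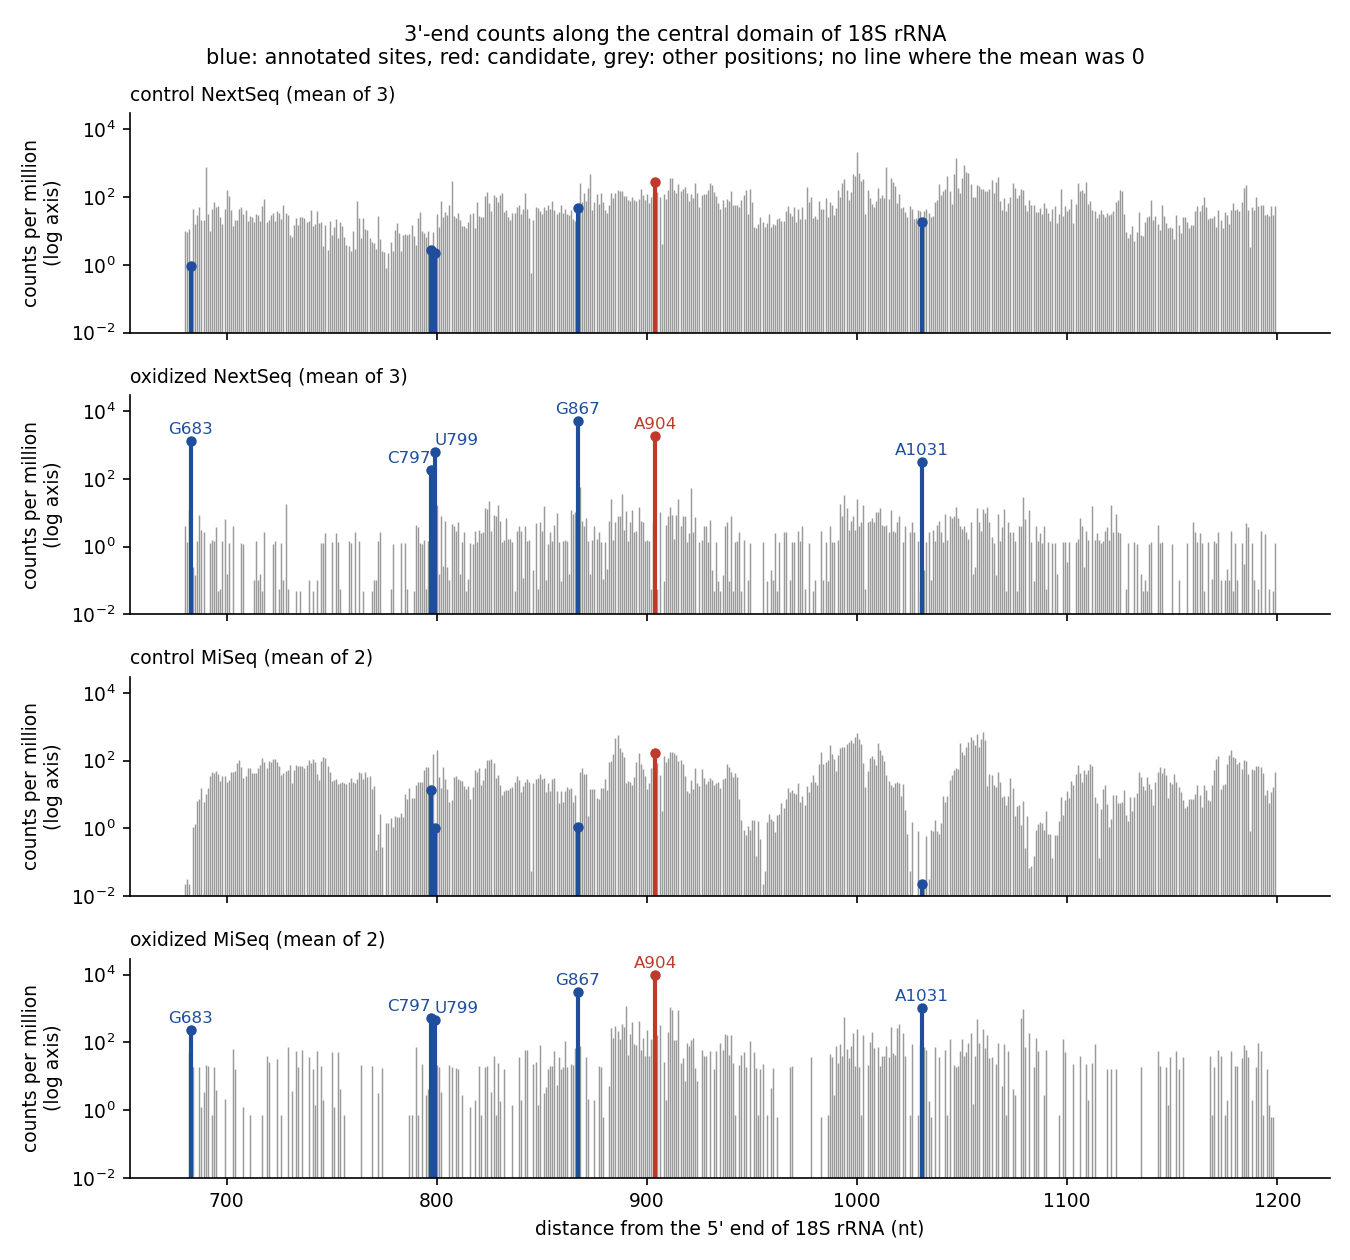
Mean CPM (log axis) at each of the 520 positions in the 4 groups of libraries, against the distance from the 5′ end of 18S in nt, with the annotated sites in blue, A904 in red and other positions in grey. After oxidation the annotated sites and A904 stand above the rest in the NextSeq libraries, whereas in the MiSeq libraries further positions around A904 reach the height of the annotated sites.

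The share at annotated sites was lower here than in the rest of 18S, where the 35 other sites took 97.39%, 97.59% and 97.58% in the same libraries. It was also below that in 28S, where 66 sites took 94.31%, 93.39% and 93.85%. The region was lower than the rest of 18S in 5 of 5 oxidized libraries of both experiments, with a mean difference of -39.4 percentage points (exact two-sided sign-flip permutation test, p = 0.0625, the smallest that 5 pairs allow). This p pools the experiments and takes alike libraries as separate, so it may be too small. Annotated sites are also sparser here, with 5 in 520 positions against 35 in 1349 in the rest of 18S. In the NextSeq libraries alone it was -29.2 points (the same exact test, p = 0.25, the smallest that 3 pairs allow). The 5 sites, 4.72% of all annotated sites, held 0.684%, 0.842% and 0.840% of the counts at annotated sites in the oxidized NextSeq libraries.

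In the MiSeq pilot the same sites took 14.1% and 13.9% of the region's counts after oxidation, against 0.0352% and 0.0729% in the controls. A904 alone took 26.8% and 26.1%, more than the 5 annotated sites together. The other 514 positions took 59.1% and 60.0%. The rest of 18S had 68.75% and 68.71% at its annotated sites in these libraries, so the share was lower than with NextSeq there too.

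Oxidized and control libraries were compared at every position of both rRNAs with edgeR's quasi-likelihood test, separately for each experiment. A position was called when its log2 fold change, oxidized over control, was above 7 and its Benjamini-Hochberg adjusted p under 0.05. The threshold of 7 is the study's, set there by its known sites in the NextSeq data. NextSeq calls of annotated sites are thus partly fixed in advance. The study's adjusted p threshold, 0.0001, was replaced by 0.05. With TMM scaling the median log2 fold change of all positions was -2.25 for NextSeq and -4.76 for MiSeq, and each fold change below is to be read against these. In the NextSeq libraries 5 of 520 positions of the region were called, 4 annotated sites and A904, while 1.53% of all tested positions were called. The study chose A904 on this same contrast, so its call is a description and not support for it. The 5 annotated sites had a median log2 fold change of 10.57, beside 11.14 for the 101 annotated sites elsewhere, of which 93 were called. All 5 sites and A904 had every oxidized library above every control library in CPM, which held for 1.65% of all positions and for 0 of the other 514. In the MiSeq libraries 15 of 517 tested positions of the region were called, 4 annotated sites and 11 others, against 2.36% of all tested positions. There 81 positions of the region had groups that did not overlap, 75 of them neither annotated nor A904, and 14.4% of all positions did so with 2 libraries a group.

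The scaling weighs on the NextSeq counts. When libraries were scaled by their totals alone, the median of all positions fell to -6.26 and only G683 was called in the region. C797 then had a log2 fold change of 6.04, U799 8.06, G867 6.74, A1031 4.09 and A904 2.72, with the direction kept at all 6.

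G683, the site of SNORD19 and SNORD19B, had 8, 70 and 135 counts in the control NextSeq libraries and 17886, 15964 and 17146 after oxidation. After oxidation it stood at 1301 ± 49.6 CPM (SD, n = 3), against 0.921 ± 0.84 CPM in the controls. Its fitted log2 fold change was 14.66 (standard error, SE, 1.35, edgeR adjusted p = 0.00264). In the MiSeq libraries it had 0 counts in both controls and 406 and 282 after oxidation. The edgeR adjusted p was 0.00693. With both controls at 0 the size of the fitted log2 fold change depends on the prior count. It was 15.38, and 10.22 with steps as single reads and 9.55 with counts divided by 50. Without control replicate 2 it was 15.01, with an adjusted p of 0.052 in a fit that had 1 control library, taken to vary like the oxidized ones.

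C797 and U799, 2 nt apart, differed in CPM in the oxidized NextSeq libraries but overlapped in the oxidized MiSeq ones. C797 had 248, 153 and 232 control counts and 2507, 2580 and 2115 oxidized counts on NextSeq. It was the weakest of the annotated sites after oxidation, at 184.6 ± 28 CPM. Its log2 fold change was 9.99 (SE 0.89, edgeR adjusted p = 0.00236). On MiSeq it had 317 and 608 counts in the controls against 786 and 764. The log2 fold change of 5.58 (SE 0.66, edgeR adjusted p = 0.00693) passed the p threshold but not the threshold of 7, so C797 was the annotated site not called on MiSeq.

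U799, the site of SNORD105 and SNORD105B, had 0, 0 and 521 control counts and 6204, 7845 and 10071 oxidized counts on NextSeq. All of its control signal was in replicate 3, and without that library, with both other controls at 0, the fitted log2 fold change was 20.87 (adjusted p = 0.0023), a size that depends on the prior count. The log2 fold change of 12.67 had a wide SE of 3.32 (edgeR adjusted p = 0.0411), and U799 was no longer called when control replicate 1 or any 1 oxidized library was left out (adjusted p from 0.0544 to 0.0698). On MiSeq it had 12 and 54 counts in the controls and 837 and 530 after oxidation, and was called with 9.13 on the log2 scale (SE 1.27, edgeR adjusted p = 0.00744), but with steps as single reads the value was 6.79, under the threshold. The count at C797 was 0.314 ± 0.098 times that at U799 in the oxidized NextSeq libraries (n = 3), below 1 in each of them, and 0.939 and 1.44 times in the oxidized MiSeq libraries.

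G867, the site of SNORD98, was the highest position of the region in the oxidized NextSeq libraries. It had 56165, 67038 and 75498 counts there and 3740, 4725 and 2444 in the controls. It alone took 46.2% ± 2.77 of the region's oxidized counts. With a log2 fold change of 10.57 (SE 0.86) it had the smallest edgeR adjusted p of the region on NextSeq, 0.00166. On MiSeq the controls had 80 and 12 counts and the oxidized libraries 4822 and 4011, a log2 fold change of 11.61 (SE 1.23, edgeR adjusted p = 0.00693).

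A1031, the site of SNORD59A, depended on 1 control library. It had 2, 50 and 4227 control counts and 3454, 4643 and 4486 oxidized counts on NextSeq, so control replicate 3 held almost all of its control signal. Its fitted change was 8.69 on the log2 scale (SE 2.53), and with an edgeR adjusted p of 0.0512 it was not called. DESeq2 called it (8.43, adjusted p = 2.8e-05), as did edgeR with passage as a covariate (12.08, adjusted p = 0.0432) and with the replicate block (12.56, adjusted p = 0.031). On summed libraries edgeR did not call it, with 8.34 (adjusted p = 0.056) where each passage was summed and 8.27 (adjusted p = 0.0633) where alike libraries were. Without control replicate 3 the change was 13.57 (adjusted p = 0.0252). On MiSeq the controls had 2 and 0 counts and the oxidized libraries 1394 and 1537, a ratio of 37330 between the summed shares (exact 95% interval 6688 to 1475000, counting 2 counts as 1 read, for counting error only). The edgeR adjusted p there was 0.00693. The interval leaves out the steps of 50, so the size of the ratio depends on how counts are turned into reads. The fitted log2 fold change was 15.17, but 10.19 with steps as single reads and 11.63 with counts divided by 50.

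**Figure D2:**
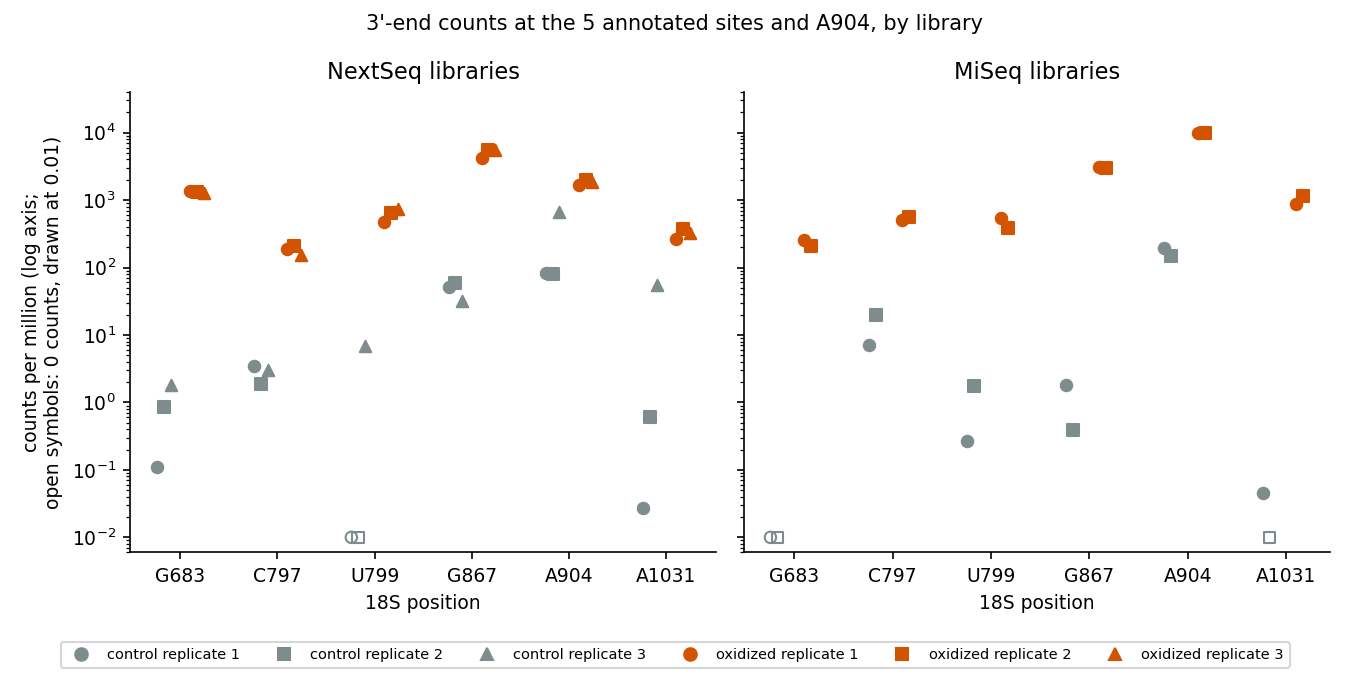
CPM (log axis) at the 5 annotated sites and A904 in each control (grey) and oxidized (orange) library, with 1 symbol per replicate and open symbols at 0.01 for 0 counts. Every oxidized library lies above every control library at all 6 positions, the control level of A904 is the highest of the 6 in all 5 control libraries, and control NextSeq replicate 3 lies far above the other NextSeq controls at U799, A904 and A1031.

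The order of the sites after oxidation changed between the experiments. On NextSeq it was G867, A904, G683, U799, A1031 and C797, and these were the 6 highest positions of the region. A1031 at 322 ± 58.6 CPM and C797 at 184.6 ± 28 CPM did not overlap. On MiSeq A904 was first and G867 second, while A1031 ranked 5, C797 10, U799 13 and G683 26 among the 520 positions. C797 at 501 and 564 CPM and U799 at 533.5 and 391.5 CPM overlapped there. The count at G683 was 0.261 ± 0.0499 times that at G867 on NextSeq and 0.0703 and 0.0842 times on MiSeq. Ligation efficiency differs with sequence, as the study's own discussion of limits says, so these orders are of counts and not of methylation levels.

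A904 was chosen by the study on the NextSeq contrast, so its NextSeq values are a description. It had 6094, 6424 and 50876 control counts and 22102, 24247 and 25584 oxidized counts, or 84.1, 79.3 and 674 CPM against 1670, 1972 and 1868. The groups did not overlap, but control replicate 3 lay far above the other controls. The fitted log2 fold change was 7.09 (SE 0.93), 9.34 above the median of all positions, and the ratio of the mean CPM values was 6.58. It was 6.76 without control replicate 1, 6.75 without replicate 2 and 8.13 without replicate 3, on either side of the threshold of 7. With all libraries kept it was 6.85 with DESeq2 and with its size factors. It was 6.47 with counts divided by 50 and 6.08 with steps as single reads. It was 7.48 with the replicate block or with passage as a covariate, but 6.97 with each passage summed. A filter of 10 summed counts left it at 7.09. Among 6833 unannotated positions of both rRNAs its oxidized level ranked 2 on NextSeq.

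The MiSeq libraries were not used to choose A904. It had 8525 and 4536 control counts and 15683 and 13427 oxidized counts, or 193.5 and 149.2 CPM against 9996 and 9918. It rose by 6.11 on the log2 scale (SE 0.33, edgeR adjusted p = 0.00693), higher in 2 of 2 oxidized libraries and below the threshold of 7. It was the highest of all 6833 unannotated positions after oxidation on MiSeq. The count at A904 was 0.365 ± 0.027 times that at G867 on NextSeq (n = 3) and 3.25 and 3.35 times on MiSeq.

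The bases directly 3′ of A904 were compared with the 3′ linker of the library protocol, a comparison chosen after the values were seen. Written as DNA, they hold CTG, AGGC and CAT in this order with at most 2 bases between them, as the linker does. A904 was the only 1 of the 6939 positions followed by these words. The words are those that the bases after A904 share with the linker, so their choice set this count and nothing is read from it. Of the positions followed by CTG, 80 were unannotated and not A904. Their median level was 2.69 CPM in the oxidized NextSeq libraries and 49.1 CPM in the oxidized MiSeq libraries, beside 1.26 and 0 CPM for all 6832 such positions. In the controls their medians were 217 and 94.1 CPM, beside 54.3 and 47.4. The highest of the 80 reached 200.8 CPM on NextSeq and 1932 CPM on MiSeq after oxidation, and those in the region 4.20 CPM (C842) and 84.5 CPM (G1184). The 6 such positions followed by CTGAG had oxidized medians of 10.7 CPM on NextSeq and 171 CPM on MiSeq. Their control medians were higher, at 191.1 and 229.5 CPM. Among them G772, in the region, had 1.51 and 3.29 CPM after oxidation. The part of the linker's words in the counts at A904 was not tested.

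According to the study, Benzonase does not cleave on the 3′ side of a 2′-O-methylated nucleotide. Control counts at each site were therefore set against the median over the 10 positions to its left and right. At G683 the control NextSeq ratios were 0.0143, 0.124 and 0.0668, and both MiSeq controls had 0 counts, where the neighbours' medians were only 30.5 and 16 counts. At C797 they were 0.211, 0.162 and 0.126 on NextSeq and 0.351 and 0.759 on MiSeq. With only 5 positions on each side, the mean NextSeq ratio at C797 was 0.543 in place of 0.166, and that of control replicate 1 was 1.15. At U799 the ratios were 0, 0 and 0.223 on NextSeq and 0.0104 and 0.0537 on MiSeq.

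G867 and A1031 showed a gap in some controls only. At G867 the ratio was 1.94 and 3.15 in control NextSeq replicates 1 and 2, above the neighbours, but 0.372 in replicate 3 and 0.189 and 0.0233 on MiSeq. At A1031 it was 0.00138 and 0.0411 in replicates 1 and 2 and 0.678 in replicate 3. The MiSeq neighbours of A1031 had medians of only 4 and 50 counts, too few for a gap to be seen. A904 had no gap in any control library. Its ratios were 1.51, 1.43 and 3.33 on NextSeq and 2.20 and 1.98 on MiSeq, all above 1.

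**Figure D3:**
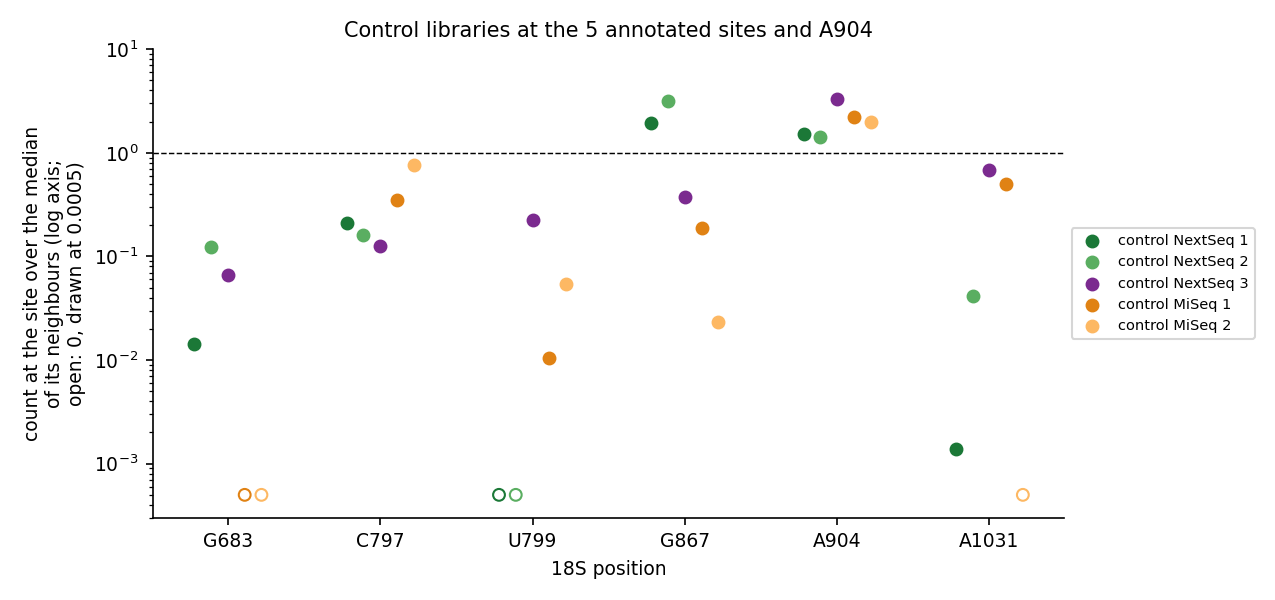
Count at each of the 5 annotated sites and A904 relative to the median of the 10 positions to its left and right (log axis), with 1 point per control library, open points for 0 and a dashed line at 1. G683, C797 and U799 lie below the line in all 5 control libraries, G867 lies above it in control NextSeq replicates 1 and 2, and A904 lies above it in all 5.

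On NextSeq the counts after oxidation lay at single positions. The nearest neighbours of G867, U866 and G868, had 0.198% and 1.18% of its counts. Beside A1031, A1030 had only 2, 0 and 0 counts and C1032 only 4, 4 and 0. Next to G683, U682 had 0.942% and G684 0.0199%. The position between C797 and U799, G798, had 1.61% of the counts at C797 and 0.608% of those at U799, with 102, 4 and 13 counts in the 3 libraries. G796 before C797 had 0.924% of its counts. The largest share next to any site was 2.98% ± 1.53 at U800, after U799. A904 was as narrow, with 0.279% at A903 and only 0, 2 and 0 counts at C905.

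On MiSeq more counts lay beside the sites. Both neighbours of A1031 were called there, A1030 with 0 control counts and 108 and 152 oxidized counts, and C1032 with 2 and 0 against 106 and 110. They had 8.82% and 7.38% of the counts at A1031. U682 was called too, but with 152 and 2 oxidized counts, it rests on oxidized replicate 1. Without that library, which leaves 1 oxidized library, its log2 fold change was 5.86. G868 had 10 and 204 counts, 2.65% ± 3.45 of those at G867.

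**Figure D4:**
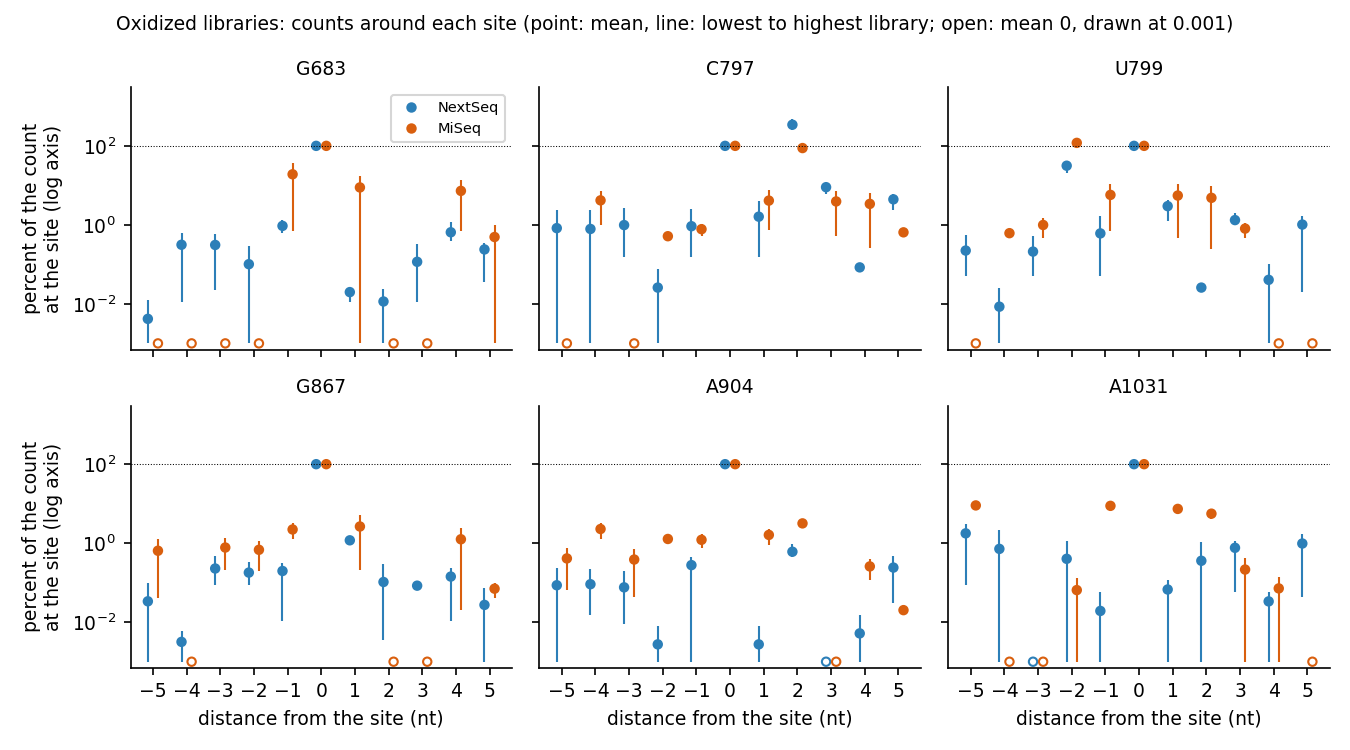
Counts within 5 nt of each annotated site and of A904 as a percent of the count at the site (log axis), in oxidized NextSeq (blue, mean of 3 libraries) and MiSeq (orange, mean of 2) libraries, with lines from the lowest to the highest library. At a distance of 1 nt the NextSeq means stay under 3%, with single libraries up to 4.17%, and the MiSeq means reach 8.82% at A1031 and 19.1% at G683, with single libraries up to 37.4%. In the panels of C797 and U799, the other of these sites stands 2 nt away.

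Over the other positions the median log2 fold change was -1.45 on NextSeq (514 fitted) and -3.05 on MiSeq (511 fitted), beside -2.25 and -4.76 for all positions. On NextSeq the highest of them was 4.53, at U682. The 3 most abundant after oxidation were G868 with 802, 698 and 815 counts, G921 with 646, 734 and 762 counts, and U888 with 344, 642 and 432. None reached 100 CPM. In CPM every control library lay above every oxidized library at all 3, at 352.5, 350.0 and 74.6 against 60.6, 56.8 and 59.5 for G868. With TMM scaling the sign was the opposite, with log2 fold changes of 3.03 at G921 and 2.22 at U888 and a positive one at G868.

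On MiSeq the 3 most abundant were U890, C911 and C1079. U890 had 855 and 732 control counts and 2051 and 1370 oxidized counts, and its log2 fold change was 6.00 (edgeR adjusted p = 0.00693). C911 had 7347 and 5716 against 1864 and 1306, and 2.86 on the log2 scale (edgeR adjusted p = 0.00693). Both lie within 14 nt of A904. Leaving out the annotated sites and A904 everywhere, the window from 880 to 919 summed to 9586 and 8071 CPM in the oxidized MiSeq libraries, the highest of the 13 windows of 40 nt, against 4097 and 4283 CPM in the controls. Counted in the same way, it was also the highest window in the oxidized NextSeq libraries, at 286, 251 and 281 CPM, against 2201, 2244 and 10660 CPM in the controls.

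The 11 other positions called on MiSeq fell at G949 and A955, at U682, A1030 and C1032 beside annotated sites, and at C1078, C1079, A1080, A1082, A1084 and C1085. Of these 11, 4 had 3 or fewer control counts in all, and the most that any had in a control library was 331. Over positions 1078 to 1085 the summed counts were 212 and 543 in the MiSeq controls and 2818 and 2680 after oxidation, or 4.81 and 17.9 CPM against 1796 and 1980. The NextSeq controls were not low there, with 11305, 14641 and 125946 counts, and the oxidized NextSeq libraries had 730, 802 and 692. Over positions 949 to 955 the MiSeq controls had 111 and 338 counts and the oxidized libraries 366 and 274. In CPM these were 2.52 and 11.1 against 233 and 202. The NextSeq controls had 7092, 7885 and 62137 counts there and the oxidized ones 52, 50 and 2.

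Fits without 1 MiSeq control library leave 1 control, taken to vary like the oxidized libraries. Without control replicate 1 the MiSeq calls were G683, U799, G867, A1031 and C1078, and without control replicate 2 they were U799, G867, A1031, C1078 and C1079. In these fits the log2 fold change was 13.28 and 13.65 at A1030, 12.99 and 10.63 at C1032 and 10.66 and 14.67 at A1082, with adjusted p from 0.0783 to 0.189. Without control replicate 1 it was under 7 at G949 (6.37), C1079 (6.79), A1084 (6.45) and C1085 (6.61). None of the 11 was called on NextSeq. Their log2 fold changes there ran from -4.96 to 4.53 with a median of 0.43, and none had all oxidized libraries above all controls. On MiSeq the call at A955 rests on 6 and 56 oxidized counts, and that at A1084 on 58 and 2, each 1 step of 50 in 1 library. C1078 had 66 and 32 control counts against 981 and 542, and rose by 8.88 on the log2 scale (SE 0.58, edgeR adjusted p = 0.00693). C1079 had 72 and 331 against 1223 and 1547, a change of 7.57 (SE 1.25, edgeR adjusted p = 0.0105). With steps as single reads they fell to 5.48 and 5.50 and were no longer called. A1080 had 8 and 10 against 112 and 108, and A1082 0 and 4 against 378 and 175. G949 had 8 and 50 against 154 and 162, and C1085 4 and 52 against 66 and 306.

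**Figure D5:**
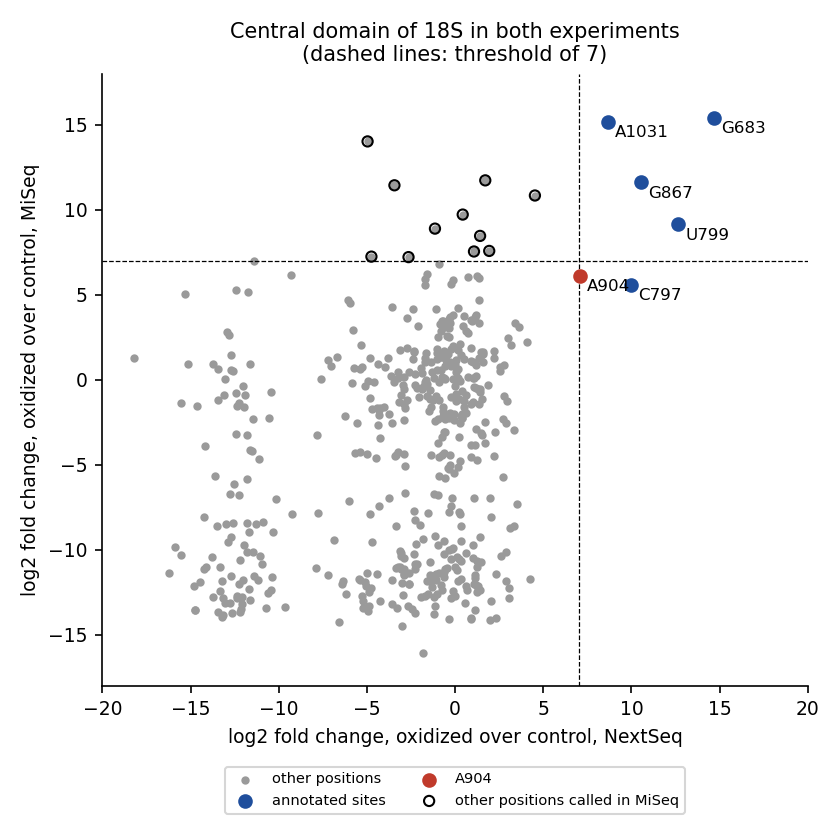
Log2 fold change, oxidized over control, at each position of the region fitted in both experiments, NextSeq on the x axis and MiSeq on the y axis, with dashed lines at 7. The annotated sites (blue) lie to the right of the NextSeq line, all but C797 also above the MiSeq line, A904 (red) lies at 7.09 and 6.11, and the 11 other positions called on MiSeq (circled) lie between -4.96 and 4.53 on NextSeq.

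Without oxidation the region's fragment ends were unevenly spread, and not alike between control libraries. In control NextSeq replicates 1 and 2 the highest position was C1000, with 234341 and 263875 counts, but it had 13811 in replicate 3. C1047 had 145500 and 173368 against 8336, and G1051 91179 and 102141 against 11713. After oxidation these positions had 378, 370 and 274 counts (C1000), 308, 122 and 152 (C1047) and 104, 52 and 7 (G1051). In replicates 1 and 2 the window from 1040 to 1079 was the highest, at 10560 and 10910 CPM, and that from 720 to 759 the lowest, at 379 and 401 CPM, where 82.5% of the bases are G or C. In replicate 3 the window from 880 to 919 was the highest, at 10660 CPM. In both MiSeq controls it was that from 1040 to 1079, at 4950 and 5963 CPM, as in NextSeq replicates 1 and 2.

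Across the 520 positions, oxidized NextSeq libraries had a Spearman's rho of 0.60 to 0.67 with each other. Between oxidized NextSeq and oxidized MiSeq libraries rho was 0.40 to 0.47, and between the oxidized MiSeq libraries it was 0.85. With control NextSeq replicate 3 the oxidized MiSeq libraries had a rho of 0.48 and 0.49, and with control NextSeq replicates 1 and 2 of 0.21 to 0.26. These are correlations across positions that share a sequence and neighbours, many of them at 0 counts, and positions are not independent replicates.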

How the data were processed

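For each library the authors deposited counts of sense alignments whose 3′-end lay at each position of 18S and 28S rRNA, without normalization. Per their methods and processing notes, read-through was trimmed (cutadapt 1.12), PCR duplicates were collapsed by a randomer and reads were aligned to hg19 (TopHat2 2.1.1, SAMtools 0.1.19). Lines for other RNAs held 0 counts. The authors' tables of fold changes, p-values and base calls were not used. Each experiment was fitted on its own, leaving out positions at 0 in all of its libraries (edgeR 4.0.16 in R 4.3.3, TMM, quasi-likelihood test, Benjamini-Hochberg adjustment) and tested on simulated data. Positions named are the annotated sites, the candidate, every called position, the 3 most abundant others in each oxidized group, the 3 most abundant in the NextSeq controls and the neighbours of the sites. Members and lists were chosen with earlier results of these data known. Alternatives included DESeq2 1.42.0, other scalings, filters and thresholds, and leaving out each library. Depth cannot be turned into reads, so intervals cover counting error only.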

Additional observations from a re-analysis of the deposited data

How the results depend on the processing

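On NextSeq, 5 positions of the region were called, among them A904, which the study chose on the NextSeq contrast. The number was 1 with library totals only, 0 at an adjusted p under 0.0001, and 3 (without control replicate 1) to 7 (without control replicate 3) when 1 library was left out. Those 7 were the 5 annotated sites, A904 and A813, which is named here after its values were seen. At an adjusted p under 0.0001 edgeR called no position of either rRNA, although 2605 had an unadjusted p under 0.05, while DESeq2 called 5 in the region (DESeq2 at this threshold was added after seeing the data). On MiSeq, 15 positions were called. The number was 0 with the replicate number as a block, 0 with edgeR at an adjusted p under 0.0001 (with 4439 positions of both rRNAs at an unadjusted p under 0.05, and 15 called in the region by DESeq2), 6 when steps of 50 and of 2 were taken as single reads (an alternative chosen after seeing the data, with all 6 under 0.0001 and U799, C1078 and C1079 among those lost), and 5 (without either control) to 16 when 1 library was left out. Other alternatives stayed within 1.5 times the count.

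Whether the replicate numbers pair the libraries was not settled, although same-numbered libraries came from the same passage. Deviations of same-numbered libraries from their group means correlated at 0.028, -0.021 and 0.009 on NextSeq and -0.009 on MiSeq. These values cannot decide it. NextSeq control replicates 1 and 2 were nearly alike (Spearman's rho 0.98), and with 2 MiSeq libraries a group the deviations mirror each other. With the replicate block 6 positions were called on NextSeq, A1031 among them (12.56, adjusted p = 0.031).

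A1031 on NextSeq was also called by DESeq2 (8.43, adjusted p = 2.8e-05), with steps as single reads (7.61, adjusted p = 0.0388) and with passage as a covariate (12.08, adjusted p = 0.0432), but not with each passage summed (adjusted p = 0.056), with alike libraries summed (0.0633) or with counts divided by 50 (0.0848). A904 fell to a log2 fold change of 2.72 with library totals only, where U799 had an adjusted p of 0.0572. On MiSeq G683 had 0.052 without control replicate 2, and C797 0.0567 without control replicate 1. No log2 fold change of the annotated sites, of A904 or of the 11 other MiSeq calls changed sign. The share of oxidized NextSeq counts at annotated sites was 54.02% with steps as single reads, and 67.6% to 69.5% when 1 library was left out.

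The MiSeq controls held few counts near A1031, where the neighbours' median was 4 in replicate 1 and 50 in replicate 2, and near G683, with 30.5 and 16, which limits the gap ratios there. The cause of these dependences was not tested.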
